A study of Rattus norvegicus with 63 samples.

Results

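The liver miRNAs of rats given ethionine (ETH) were compared with those of their vehicle controls. The comparison holds 6 of the 63 arrays of the series, chosen by sample label: 3 rats on ETH and 3 control rats of methylcellulose (MC) control set 5, numbered 7 to 9, with 1 array per rat. All were male Wistar Hanover rats, 8 to 10 weeks old at the start. The ETH rats received 200 mg/kg per day by gastric gavage for 14 days, and the controls received methylcellulose alone for 14 days. The study's methods name carboxymethyl cellulose as the vehicle of ETH, while its overview of compounds lists MC. The study dosed 5 rats per group and profiled 3, which its methods state were picked for their histopathological changes, so the profiled ETH rats are not a random draw of the dosed rats. The array holds probes for 350 rat miRNAs, and 162 of them were detected on at least 1 of the 63 arrays and were tested.

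Ethionine is the ethyl analogue of the amino acid methionine. Liver cells turn it into S-adenosylethionine, which ties up adenosine and disturbs methylation and energy supply, and long feeding causes liver tumours in rats. The study placed it among the non-genotoxic carcinogens. A miRNA is a short RNA that pairs with messenger RNAs mainly through its seed, bases 2 to 8 from the 5′ end, and lowers their translation or stability. In liver, hepatocytes carry miR-122, miR-192 and miR-194, the miR-34 genes are targets of p53, and miRNAs such as miR-142 come from blood cells.

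The sequences below are those of the miRNAs that the results turn on, from the RefSeq annotation of GRCr8, with the seed in capitals. Of the 26 miRNAs called in the ETH rats, 25 had a RefSeq sequence. Names on the array without an arm were matched to the main strand of the older nomenclature. The miR-34 family shares 1 seed. miR-34a lies at chr5:165815971-165815992 on the plus strand, and miR-34b (chr8:60306657-60306679, minus strand) and miR-34c start 524 bases apart on chromosome 8.
miR-34a: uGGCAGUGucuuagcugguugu
miR-34b: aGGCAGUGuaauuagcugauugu
miR-34c: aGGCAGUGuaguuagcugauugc

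The hepatocyte miRNAs that fell come from a pair of gene clusters. The mature miR-192 (chr1:212994232-212994252) starts 194 bases from a copy of miR-194 (chr1:212994038-212994059), and a further copy of miR-194 lies on chromosome 13. The mature miR-193 (chr10:65170370-65170391) and miR-365 (chr10:65184271-65184292) start 13901 bases apart. All of these lie on the plus strand, and the 4 seeds differ.
miR-192: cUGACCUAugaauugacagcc
miR-194: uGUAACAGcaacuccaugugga
miR-193: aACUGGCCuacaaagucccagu
miR-365: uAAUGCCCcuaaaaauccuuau

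Members of other families differ so little that array probes may read each other's RNA, which was not tested. The mature miR-23a and miR-23b share a seed and differ by 1 base, as do miR-19a and miR-19b, and miR-30a and miR-30e. miR-26a and miR-26b share a seed and differ by 2 bases, counting a base that miR-26b lacks. miR-23b (chr17:1819405-1819425) and miR-27b (chr17:1819163-1819183) start 242 bases apart, and miR-23a (chr19:40859778-40859798) starts 164 bases from miR-27a, all on the minus strand. miR-19a (chr15:98588179-98588201) lies on the plus strand 307 bases from a copy of miR-19b, which has a further copy on chromosome X. miR-30a lies at chr9:33233946-33233967, miR-30e at chr5:139637504-139637525, miR-26a at chr8:127633063-127633084 and miR-26b at chr9:83425723-83425743.
miR-23a: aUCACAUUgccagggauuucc
miR-23b: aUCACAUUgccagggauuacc
miR-27b: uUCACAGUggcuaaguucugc
miR-19a: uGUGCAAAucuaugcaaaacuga
miR-19b: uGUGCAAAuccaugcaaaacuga
miR-30a: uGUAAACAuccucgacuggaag
miR-30e: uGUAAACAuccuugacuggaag
miR-26a: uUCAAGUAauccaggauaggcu
miR-26b: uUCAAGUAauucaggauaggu

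The 3 ETH arrays lay on slide 7, the arrays of MC set 5 on slides 5 and 6, and all 6 were scanned on day 2. The array slide therefore cannot be told apart from the treatment in the labelled comparison, except through the other groups on the same slides. Slide 7 also held the 3 arrays labelled MC set 2, given methylcellulose for 14 days as well. For cefuroxime and nifedipine, the compounds of that set, the study's overview lists carboxymethyl cellulose. The listed vehicle of set 2 may therefore differ from that of ETH. In the value table that the authors deposited, the 3 columns labelled MC set 5 followed those MC set 2 arrays more closely (r of 0.864 to 0.907 over 71 miRNAs) than their own scanner files (r of 0.248 to 0.654), while the ETH columns followed their own arrays (r of 0.895 to 0.919). These r describe differences from the mean of each miRNA. Which assignment is right was not settled, so the text follows the labels and sets the result against the MC set 2 arrays, which is a comparison within slide 7, beside it. Median spot brightness was 142.5 to 146 units on the ETH arrays and 148 to 152 on the MC set 5 arrays, and 107 to 117 and 107 to 114 miRNAs were detected. The defining hepatocyte miRNAs miR-122, miR-192 and miR-194 were well above background on all 6 arrays, and the single tested miRNA of each of the muscle, neural and pancreas lists was well above background on none.

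Values are log2 of the spot brightness after quantile normalization, without background subtraction. They ran from 7.36 to 14.67, and dim miRNAs near the lower end show compressed differences. The threshold for a call was an adjusted p of 0.05 in limma (Benjamini-Hochberg), and 26 of 162 passed it. miRNAs higher in ETH made up 10 calls (6.17% of those tested), and those lower made up 16 (9.88%). At an unadjusted p below 0.05 there were 44. The 3 ETH rats lay above all 3 controls for 27 miRNAs (16.7%) and below them for 33 (20.4%), and 24 of the 26 called miRNAs were among these. All probes of each called miRNA moved in the same direction, and 23 of the 26 were well above background on all 6 arrays. The differences were small: 10 called miRNAs reached 1.2-fold and 2, miR-34a and miR-192, reached 1.5-fold. Profiles of differences from the control mean correlated between the ETH rats with r of 0.897 to 0.954 across miRNAs, which share controls and are not independent replicates. Nothing in the sources tells whether the rats were dosed or processed apart, so p-values measure only the spread between rats within groups. limma took that spread from all 21 groups of the series. When limma was fitted to only the groups compared, 22 miRNAs were called, 20 of them shared, and miR-34a had an adjusted p of 0.0044.

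Against the MC set 2 arrays on the same slide, 25 of 162 miRNAs were called (15.4%), 5 higher and 20 lower, and 20 of the 26 were among them. The calls of miR-142-3p, miR-142-5p, miR-10a-5p, miR-19a, miR-219-5p and miR-186 were not. With the values that the authors deposited, 26 of 135 miRNAs were called (19.3%), 5 higher and 21 lower, 19 of them shared. All of the 26 called miRNAs kept their sign in both. The split of higher to lower calls turned with the scaling, to 20 and 12 with the scanner's background-subtracted signal scaled by the 75th percentile over detected miRNAs and to 1 and 8 with that percentile over all probes. With slide as a fixed block, only miR-34a was called. ETH and MC set 5 share no slide, and some differences that grew also lost their calls. These were miR-19b at 0.72 (adjusted p = 0.18), miR-193 at -0.55 and miR-365 at -0.40, while those of miR-192 and miR-194 shrank. With controls as in the value table and slide as a block, 26 were called, 20 of them shared. In the labelled comparison the total fell to 16 without ETH rat 3, to 17 without control rat 8 and to 15 without control rat 9. The higher calls fell to 5 without ETH rat 2, to 3 without ETH rat 3 and to 4 without control rat 7, 8 or 9. The 11 miRNAs called whichever of the 6 rats was left out were miR-34a, miR-19b, miR-192, miR-194, miR-193, miR-365, miR-30d, miR-30a, miR-23b, miR-26b and miR-7a.

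**Figure D1:**
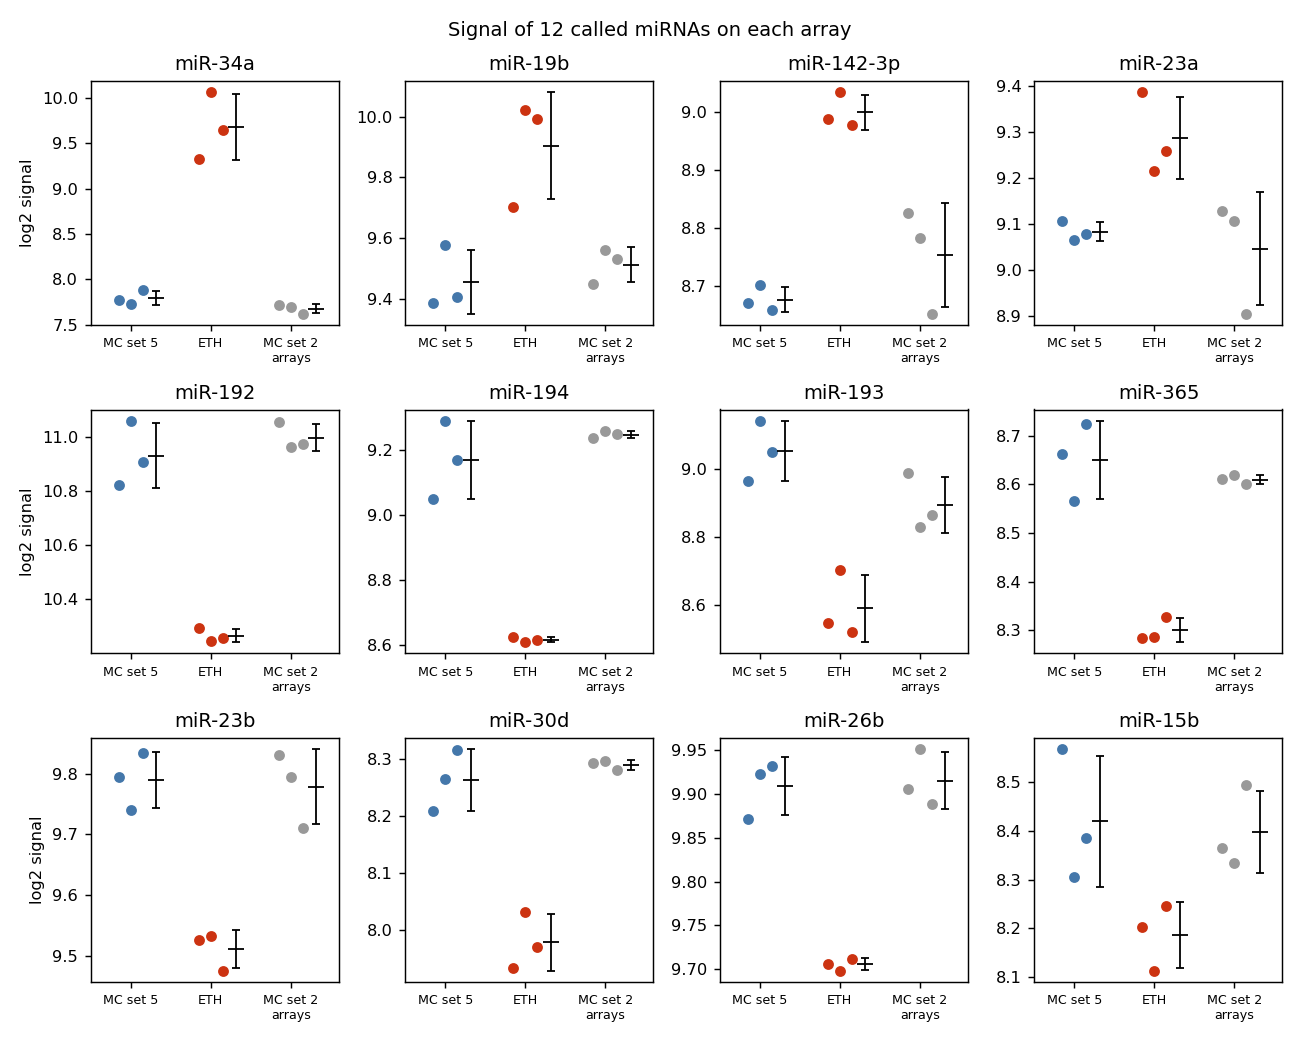
Log2 signal (vertical axis) of 12 called miRNAs on each array, for the control rats of MC set 5, the ETH rats and the arrays labelled MC set 2 from the same slide as ETH. Points are rats, and the bar beside them is the mean with 1 SD (n = 3); axes differ between panels and do not start at 0. In every panel the 3 ETH points lie apart from the 3 points of MC set 5, most widely for miR-34a at 9.33 to 10.07 against 7.73 to 7.88.

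miR-34a, which p53 induces and which holds back cell cycle genes, showed the largest change. Its log2 signal was 9.33, 10.07 and 9.65 in the ETH rats and 7.77, 7.73 and 7.88 in the controls. Every ETH rat lay more than 1 unit above every control, and ETH rat 2 was the highest. The mean rose from 7.80 ± 0.08 to 9.68 ± 0.37 (SD, n = 3), a difference of 1.89 ± 0.12 (SE) or 3.70-fold (limma, adjusted p = 3.5e-17). The difference was 2.01 against the same-slide arrays, 1.90 with slide as a block (adjusted p = 0.00014), 3.76 with the background-subtracted signal and 4.68 in the authors' value table, whose values spread 2.54 times as widely around the mean of each miRNA as those used here for a reason not settled. Sizes from that table are on its own scale.

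The sister miRNAs miR-34b and miR-34c, which carry the same seed but come from another p53-responsive gene, were well above background on none of the 6 arrays. miR-34b read 7.45 to 7.47 in the ETH rats and 7.43 to 7.45 in the controls (difference 0.014, 95% interval -0.028 to 0.055). miR-34c read 7.40 to 7.44 and 7.43 to 7.45 (difference -0.017, 95% interval -0.045 to 0.011). The groups overlapped for both, and neither was called, so of the 3 tested members of the family only miR-34a was.

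Hepatocyte miRNAs supplied the largest decreases. miR-192, a p53-responsive miRNA of liver, gut and kidney epithelium, had log2 signals of 10.29, 10.25 and 10.26 in the ETH rats and 10.82, 11.06 and 10.91 in the controls. The ETH rats agreed to within 0.05 units and all lay below the controls. It fell by 0.66 on the log2 scale, or 1.58-fold (SE 0.07, adjusted p = 2.0e-10). miR-194, from the same cluster, read 8.62, 8.61 and 8.62 against 9.05, 9.29 and 9.17 and fell by 0.55, or 1.47-fold (SE 0.06, adjusted p = 4.9e-09). The drop was 0.73 for miR-192 and 0.63 for miR-194 against the same-slide arrays, and 0.86 and 0.71 with the background-subtracted signal. With slide as a block the differences were -0.53 and -0.33 and were not called (adjusted p = 0.18 and 0.45).

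miR-193 and miR-365, whose mature sequences start 13901 bases apart on chromosome 10, fell as well. miR-193 read 8.55, 8.70 and 8.52 in the ETH rats and 8.97, 9.14 and 9.05 in the controls, a drop of 0.46, or 1.38-fold (SE 0.10, adjusted p = 0.0015). miR-365 read 8.29, 8.29 and 8.33 against 8.66, 8.57 and 8.73, a drop of 0.35, or 1.28-fold (SE 0.06, adjusted p = 4.4e-05). Neither pair of groups overlapped. Against the same-slide arrays both were called, at -0.30 and -0.31.

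Of the 8 tested miRNAs on a list of hepatocyte-abundant miRNAs, these 4 were lower and 0 were higher, beside 9.88% of all 162 called lower. This list and those below were chosen with earlier results of these data known, so such counts are not independent support. The median difference was -0.20, and -0.0011 over all 162. The other 4 were miR-122, miR-101a, miR-101b and miR-148b-3p, with differences of -0.043 to 0.19. miR-122, which makes up much of the miRNA in hepatocytes, read 14.66 to 14.67 in the ETH rats and 14.66 to 14.67 in the controls (difference 0.0017, 95% interval -0.063 to 0.067). It had the brightest signal of all miRNAs on each of the 63 arrays, and quantile normalization gives the brightest probes nearly the same value on every array. With the background-subtracted signal, which is not quantile normalized, the difference was 0.13 (adjusted p = 0.46). In liver tissue, fewer cells of a type and less of a miRNA per cell cannot be told apart.

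**Figure D2:**
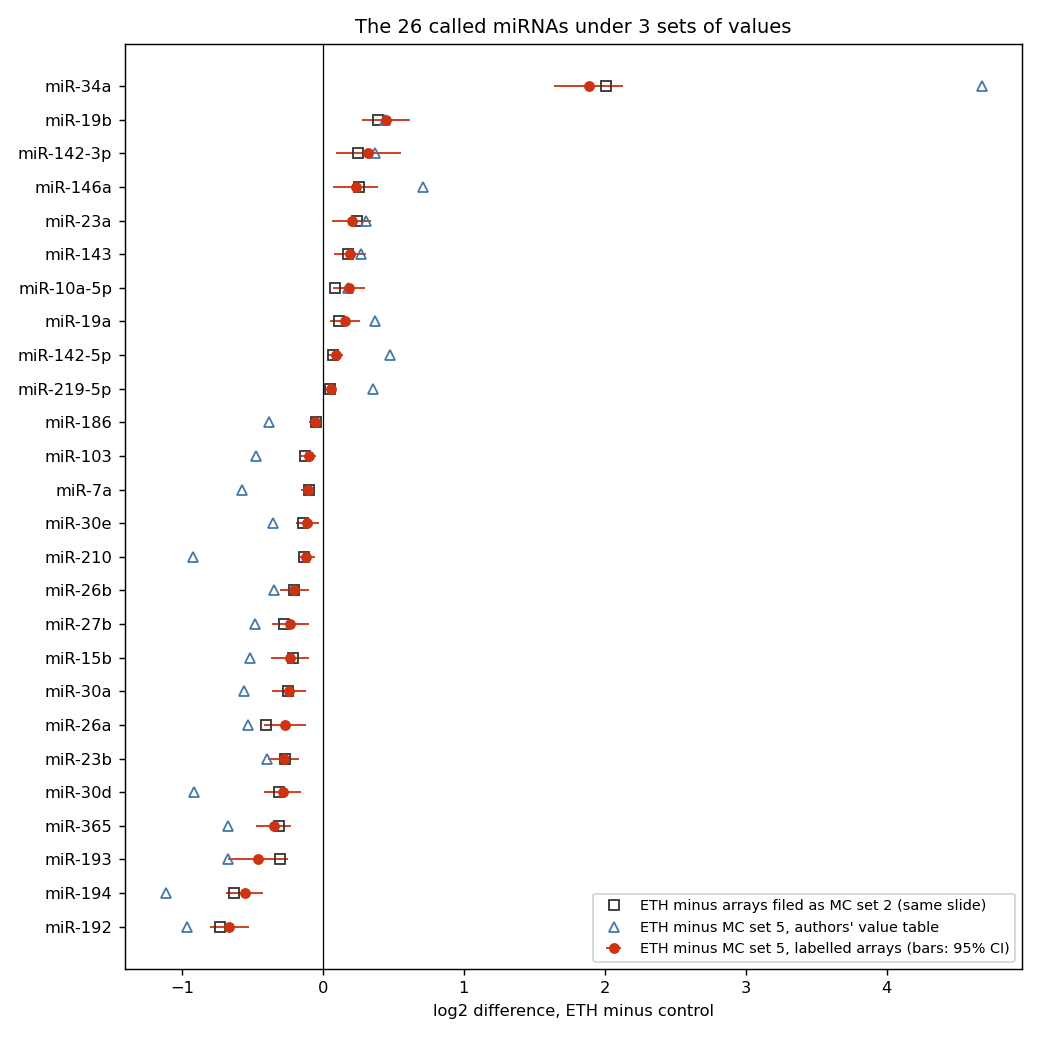
Log2 difference between ETH and control (horizontal axis) for the 26 called miRNAs, with the labelled MC set 5 arrays (circles, bars for the 95% interval), the MC set 2 arrays of the same slide (squares) and the authors' value table (triangles). All 3 symbols lie on the same side of 0 for each miRNA, and miR-34a stands apart at 1.89, 2.01 and 4.68.

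The miR-30 and miR-26 families, which are expressed across many tissues and often lower in liver tumours, held called members in the downward direction only. Among 9 tested miR-30 members, miR-30d, miR-30a and miR-30e fell and 0 rose, with a median of -0.093, where 9.88% of all 162 were called lower with a median of -0.0011. miR-30d fell most, from 8.21, 8.27 and 8.32 in the controls to 7.93, 8.03 and 7.97 in the ETH rats, a drop of 0.29 (SE 0.07, adjusted p = 0.0017). miR-30a fell by 0.24 with no overlap (8.32 to 8.41 against 8.52 to 8.70, adjusted p = 0.0033). For miR-30e the groups overlapped, at 8.13 to 8.23 against 8.21 to 8.34, and its call (adjusted p = 0.049) was lost without ETH rat 1 or 3 or control rat 8 or 9. The other 6, including the star strands of miR-30a and miR-30e, ranged from -0.11 to 0.0093.

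Both tested members of the miR-26 family fell. miR-26b read 9.71, 9.70 and 9.71 in the ETH rats and 9.87, 9.92 and 9.93 in the controls, a drop of 0.20 (SE 0.05, adjusted p = 0.0038). miR-26a fell by 0.27 (SE 0.07, adjusted p = 0.0086), but ETH rat 1 at 9.96 overlapped control rat 7 at 9.95, and the other values were 9.71 and 9.84 against 10.19 and 10.17. Its call was lost without ETH rat 2 or control rat 8 or 9. Against the same-slide arrays miR-26a fell by 0.41 (adjusted p = 0.0001).

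The clusters of miR-23, miR-24 and miR-27, of which the chromosome 17 copy is known from endothelium and lipid metabolism, moved in both directions. miR-23a rose from 9.11, 9.07 and 9.08 in the controls to 9.39, 9.22 and 9.26 in the ETH rats, by 0.20 (SE 0.07, adjusted p = 0.036). miR-23b fell from 9.79, 9.74 and 9.83 to 9.53, 9.53 and 9.48, by 0.28 (SE 0.06, adjusted p = 0.0002). miR-27b, the neighbour of miR-23b, fell from 8.91 to 9.04 in the controls to 8.68 to 8.80 in the ETH rats, by 0.23 (adjusted p = 0.0086), while miR-27a, the neighbour of miR-23a, differed by 0.10 and was not called. None of the 3 called miRNAs had overlapping groups, and each of them was called against the same-slide arrays, at 0.24, -0.27 and -0.28. The call of miR-23a was lost on leaving out ETH rat 1 or 3 or any of the controls. That of miR-27b was lost without ETH rat 3 or control rat 9. Of the 7 tested members of these clusters 1 rose and 2 fell.

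miR-19b and miR-19a, which belong to the growth-promoting cluster that runs from miR-17 to miR-92a, rose. miR-19b read 9.70, 10.02 and 9.99 in the ETH rats and 9.39, 9.58 and 9.41 in the controls, with ETH rat 1 the nearest to the controls. It rose by 0.45, or 1.36-fold (SE 0.08, adjusted p = 0.00011), and by 0.39 against the same-slide arrays (adjusted p = 0.0006). miR-19a read 8.06, 8.30 and 8.18 against 8.04, 8.06 and 7.98, so that ETH rat 1 and control rat 8 were level to within 0.01. It rose by 0.15 (SE 0.05, adjusted p = 0.042), was not called against the same-slide arrays (0.11, adjusted p = 0.14), and kept its call only without ETH rat 1 when single rats were left out. The other 8 of the 10 tested members of this cluster and its paralogs, among them miR-93 at -0.015, were not called, and the list's median was 0.0071.

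Of the tested leukocyte miRNAs, 3 of 7 rose. The 2 arms of miR-142, a miRNA made in blood cells, and miR-146a, which NF-kB induces and which dampens Toll-like receptor signalling, rose. miR-142-3p read 8.99, 9.03 and 8.98 in the ETH rats and 8.67, 8.70 and 8.66 in the controls, a rise of 0.32 (SE 0.12, adjusted p = 0.049). The gap between the groups was wide beside the spread within them, but limma takes the spread from all 21 groups, and the call was lost whichever rat was left out. miR-142-5p rose by 0.091 (7.70 to 7.72 against 7.61 to 7.63, adjusted p = 0.012) and lost its call without ETH rat 3 or control rat 9. miR-146a read 8.29, 8.41 and 8.39 against 8.15, 8.16 and 8.08, a rise of 0.23 (SE 0.08, adjusted p = 0.037), and kept its call only without ETH rat 1. Against the same-slide arrays miR-146a was called (0.26, adjusted p = 0.018), and miR-142-3p (0.25, adjusted p = 0.14) and miR-142-5p (0.071, adjusted p = 0.054) were not. These 3 calls stand beside 6.17% of all 162 miRNAs called higher. On the list 0 fell, and all 7 differences were above 0, beside 78 of all 162. The median was 0.055, and -0.0011 over all 162. The summed linear signal of the list was 1822 to 1864 units in the ETH rats and 1646 to 1667 in the controls. It includes the 3 called miRNAs and is not separate support. Such a gap was not particular to this list. The stellate, smooth muscle and fibroblast list read 1618 to 1724 against 1530 to 1602, and the miR-200 family 979 to 1050 against 964 to 971. Other sums lay below the controls, as for the hepatocyte-abundant list (29757 to 30130 against 30451 to 31287). The remaining 4 leukocyte miRNAs, miR-223, miR-150, miR-146b and miR-342-3p, were not called.

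Single miRNAs of other groups also passed the test. miR-143, a smooth muscle miRNA, read 9.01, 8.81 and 8.78 in the ETH rats and 8.65, 8.59 and 8.77 in the controls and rose by 0.19 (SE 0.06, adjusted p = 0.012). ETH rat 3 lay less than 0.01 above control rat 9, and the call was lost without ETH rat 1 or control rat 7 or 8. The other 6 of the 7 tested stellate, smooth muscle and fibroblast miRNAs were not called, and the median was 0.028. miR-10a-5p, from a Hox gene cluster, rose by 0.19 (8.48 to 8.61 against 8.31 to 8.41, adjusted p = 0.019) but was not called against the same-slide arrays (0.087, adjusted p = 0.40) or without ETH rat 2 or 3 or control rat 7 or 8.

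miR-15b, which restrains cyclins and Bcl2, fell by 0.23 (SE 0.07, adjusted p = 0.012), from 8.57, 8.31 and 8.39 to 8.20, 8.11 and 8.25. Its lowest control and its highest ETH rat were 0.06 apart, and the call was lost without ETH rat 2 or control rat 7. It was the only member called among the 6 tested of the miR-15 and miR-16 family. miR-103, encoded within a pantothenate kinase gene, fell by 0.10 (7.86 to 7.92 against 7.98 to 8.01, adjusted p = 0.0065), a call lost without ETH rat 1. miR-107, which shares its seed and differs by 1 base, also differed by -0.10 and was not called (adjusted p = 0.14). miR-7a, an inhibitor of growth factor signalling, fell by 0.11 (7.55 to 7.58 against 7.65 to 7.69, adjusted p = 0.0025).

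The remaining 3 calls lay near background. miR-210, which low oxygen induces, was not well above background on any ETH array and was so on all 3 control arrays. It was an estimated 1.09-fold lower (difference -0.12, SE 0.03), at 7.50 to 7.55 against 7.61 to 7.69 (adjusted p = 0.0034). The drop in the authors' value table was 0.93, and the call was lost without control rat 9. miR-186 had the same pattern of detection and was an estimated 1.04-fold lower (adjusted p = 0.043), a call lost whichever rat was left out. Each such fold sets the mean of the controls against the signal of the ETH rats. Where the lowest signal well above background on the array was higher, that signal was used instead. The spread between rats is left out, so neither fold is a minimum. miR-219-5p (adjusted p = 0.036) was not well above background in either group, so no fold is given.

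**Figure D3:**
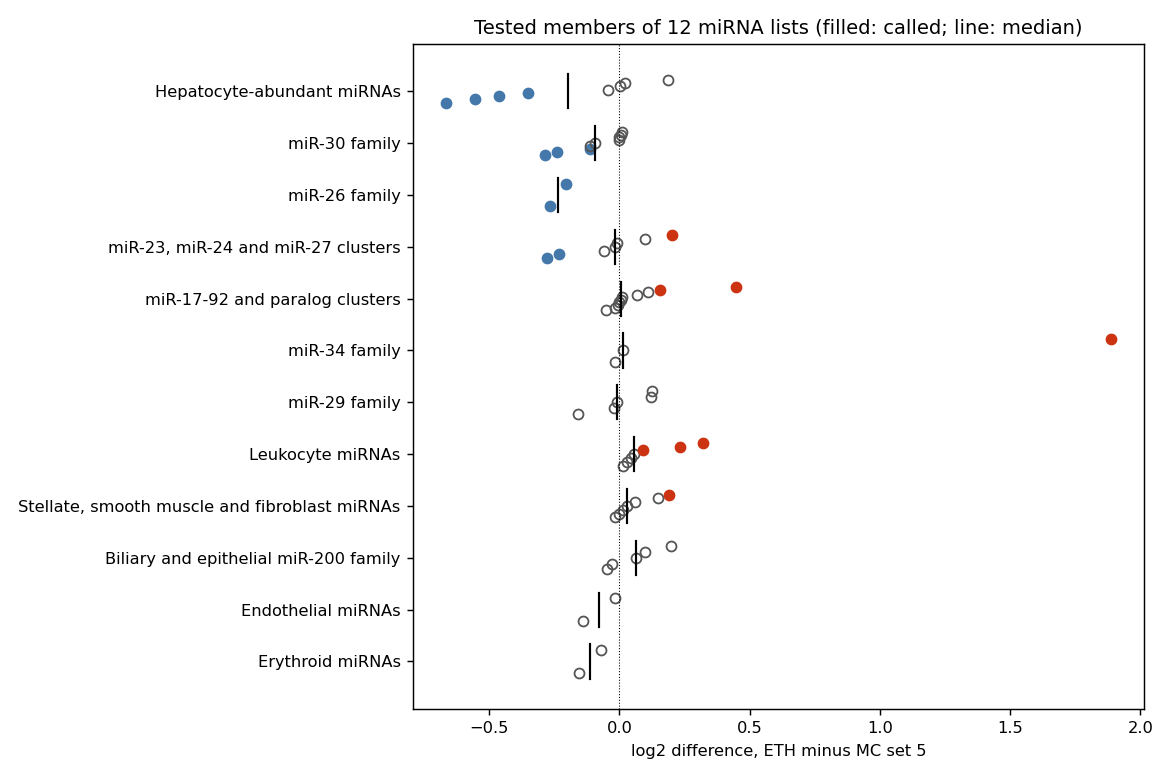
Log2 difference between ETH and MC set 5 (horizontal axis) of each tested member of 12 miRNA lists. Filled points are called miRNAs, open points were not called, and the line marks the median of the list. The hepatocyte-abundant list has 4 of 8 members called lower, the leukocyte list 3 of 7 called higher, and the miR-29 list none of 5 called.

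Several miRNAs known from injured or fibrotic liver were not called. miR-21, which rises in many forms of liver injury and growth, read 12.45, 12.51 and 12.39 in the ETH rats and 12.38, 12.49 and 12.53 in the controls, and the groups overlapped fully (difference -0.012, 95% interval -0.18 to 0.16). Of the miR-29 family, which represses collagens, 5 members were tested and 0 were called. miR-29a (10.28 to 10.34 against 10.13 to 10.23, difference 0.12, 95% interval -0.050 to 0.29) and miR-29b (difference 0.13, 95% interval -0.14 to 0.39) read higher, and miR-29c read lower (9.10 to 9.23 against 9.21 to 9.39, difference -0.16, 95% interval -0.30 to -0.016, adjusted p = 0.13). Against the same-slide arrays miR-29c was called, at -0.23 (adjusted p = 0.018), and in the value table it was called at -0.39 (adjusted p = 0.002). The star strands of miR-29a and miR-29c were well above background on no array of either group.

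miR-200b, an epithelial and bile duct miRNA, read 8.02, 7.86 and 7.98 in the ETH rats and 7.81, 7.72 and 7.73 in the controls, without overlap, but was not called (difference 0.20, SE 0.09, adjusted p = 0.15). None of the 5 tested miR-200 family members was called, with a median of 0.063. The erythroid miR-451 had the largest SD of all tested miRNAs in the controls, 0.37, at 10.04, 9.32 and 9.55 against 9.58, 9.26 and 9.61 (difference -0.15, SE 0.35). The summed signal of miR-451 and miR-144 was 862 to 1055 units in the ETH rats and 901 to 1350 in the controls, and that of the endothelial miR-126 and its star strand 751 to 845 and 823 to 883. No member of either list was called. The part of blood, duct or vessel cells in the other results was not tested.

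The effect of ETH was set against those of other carcinogens in the series, each taken against the control rats that its label names. Acetamide (AA) was given at 3000 mg/kg per day for 14 days and methapyrilene (MPy) at 60 mg/kg per day for 7 days, with MC set 1 as controls of both. The genotoxic dimethylnitrosamine (DMN) was given at 4 mg/kg per day for 7 days with a corn oil set (CO set 3), and both of its groups were scanned on day 1. Doses, and for MPy and DMN days, differ from those of ETH. The MC set 1 rats were dosed for 14 days, so the MPy effect sets 7-day rats against 14-day controls. In the value table the MC set 1 columns followed the MC set 5 arrays (r of 0.864 to 0.885) more closely than their own (r of 0.234 to 0.564). Which arrays are the controls of AA and MPy was therefore not settled either. The difference of effects was called for 21 of 162 miRNAs against AA (13.0%), for 25 against MPy (15.4%) and for 22 against DMN (13.6%), of which 10, 8 and 9 were among the 26 called miRNAs. With the control arrays assigned as in the value table, 10, 18 and 20 were called. There the MC set 2 arrays served as controls of ETH and the MC set 5 arrays as those of AA and MPy. With the labelled controls and slide as a fixed block 0, 0 and 1 were called, the last being miR-122 at 0.38 (adjusted p = 9.2e-05). The count against AA fell to 6 without ETH rat 2, to 10 without ETH rat 3 or control rat 7 and to 9 without control rat 9, and those against MPy and DMN fell to 16 and 14 without control rat 7.

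The rise of miR-34a was larger with ETH (1.89) than with AA (0.55) and MPy (1.12), by 1.34 ± 0.17 (SE, adjusted p = 6.3e-08) and 0.77 ± 0.17 (adjusted p = 0.0022). With the background-subtracted signal the difference from AA was called (1.89, adjusted p = 0.0019). That from MPy was 0.86 and was not called there (adjusted p = 0.15). With DMN miR-34a rose by 1.96, and a difference between ETH and DMN was not called (-0.077, 95% interval -0.42 to 0.27). In DMN rats miR-34b and miR-34c were also called higher, and their effects differed from those in ETH rats (adjusted p = 1.6e-06 and 0.0009). Neither was well above background on the ETH arrays or on any control array of either compound, and on the DMN arrays miR-34b was so on 1 and miR-34c on 0, so no fold is given.

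The drop of miR-192 was larger with ETH than with all 3 of these compounds, whose own differences were -0.10 (AA), -0.18 (MPy) and 0.035 (DMN), with adjusted p = 4.7e-05, 0.001 and 5.7e-07. That of miR-194 was larger than with AA (-0.17, adjusted p = 0.0037) and DMN (-0.14, adjusted p = 0.0009), and the difference from MPy, in whose rats it fell by 0.32, was -0.24 and not called (adjusted p = 0.074). With the control arrays assigned as in the value table that difference was called at -0.35 (adjusted p = 0.013), and in the value table itself and with the background-subtracted signal at -0.62 and -0.40 (adjusted p = 0.029 and 0.025). miR-15b, lower in ETH rats, was higher in AA, MPy and DMN rats, by 0.52, 0.43 and 0.49, each of them called, and its differences of effect were -0.76, -0.66 and -0.72 (adjusted p = 6.3e-08, 3.2e-06 and 3.9e-07). miR-19b was called in ETH rats and not in these 3, at 0.45 beside 0.073, 0.047 and -0.041, and all 3 differences were called. Those from AA and MPy (adjusted p = 0.037 and 0.017) were lost without ETH rat 2, ETH rat 3 or control rat 7, and that from AA also without control rat 9. In the value table the miR-19b differences from AA and DMN were not called (adjusted p = 0.11 and 0.073), and that from MPy was (adjusted p = 0.040). With the background-subtracted signal those from AA and MPy were not called (adjusted p = 0.059 and 0.068), and that from DMN was (adjusted p = 0.0089). miR-143 and miR-10a-5p rose in ETH rats and fell in DMN rats, by 0.33 and 0.38. miR-142-3p rose by 0.76 and miR-146a by 0.48 in DMN rats, and neither difference from ETH was called (adjusted p = 0.066 and 0.12). That of miR-142-3p, -0.43, was called with control arrays as in the value table (-0.51, adjusted p = 0.028) and with the background-subtracted signal (-0.90, adjusted p = 0.042).

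Diethylstilbestrol (DES) at 10 mg/kg per day and piperonyl butoxide (PBO) at 1200 mg/kg per day, both for 3 days, had the same 14-day MC set 5 controls, so their values share these rats with ETH and are only set beside them. miR-34a differed by 0.13 in DES and -0.23 in PBO rats, miR-192 by 0.26 and -0.24, miR-194 by -0.14 and -0.14, and miR-19b by -0.011 and -0.36. Value-table columns labelled DES followed the arrays labelled dehydroepiandrosterone (DHEA), a 14-day group, and the DHEA columns followed the DES arrays. Which is right was not settled, so the DES values may be those of DHEA rats.

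**Figure D4:**
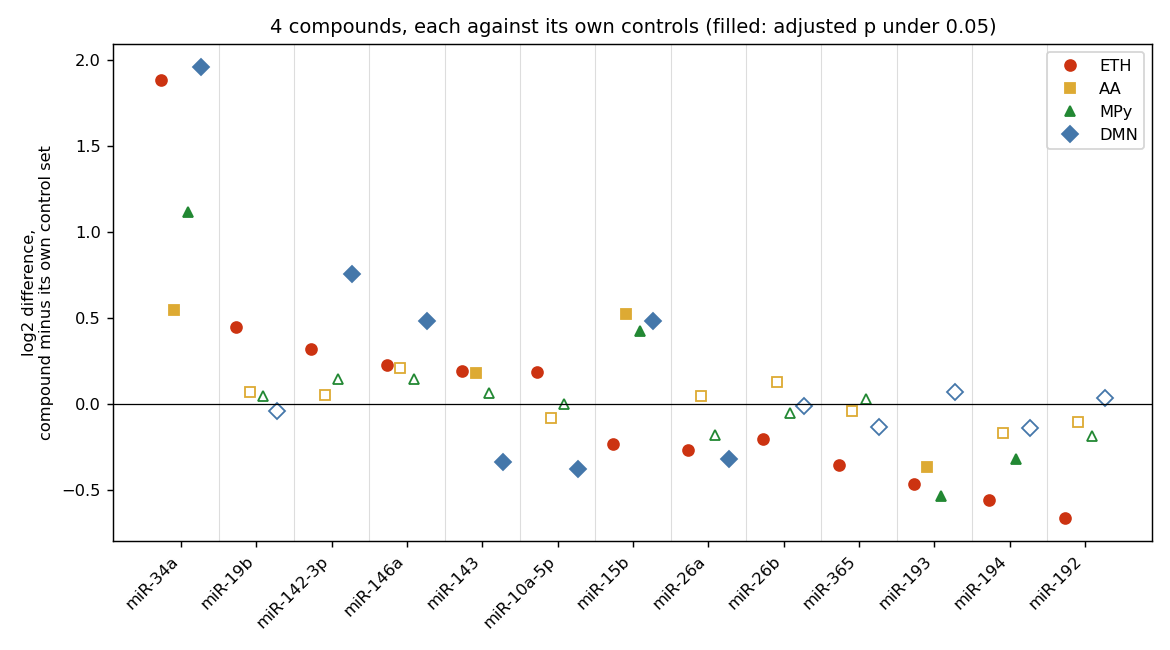
Log2 difference of each compound from its own control set (vertical axis) for 13 of the called miRNAs, in ETH (circles), AA (squares), MPy (triangles) and DMN (diamonds) rats, 3 per group. Filled symbols have an adjusted p below 0.05. miR-34a was called in all 4 compounds, and miR-15b lies below 0 in ETH (-0.23) and above 0 in the other 3.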

How the data were processed

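Total liver RNA of each rat was hybridized to a one-colour Agilent miRNA array. Per the file headers, the deposited scanner files hold spot intensities read with Agilent Feature Extraction 10.7.3.1, as mean brightness, local background and a background-subtracted processed signal. The authors' value table holds normalized log2 values of 135 miRNAs, which the methods describe as RMA without background correction. Their spread is 2.54 times that of the values made here in that way, so how the table was scaled is unclear. Here mean brightness was taken without background correction, spots with an outlier flag (2.87%) were dropped, and values were quantile normalized, averaged per probe, log2-transformed with no pseudocount and summarized per miRNA by median polish. The filter dropped the 188 of 350 miRNAs without detection on any array. No spot was saturated, and the number of arrays limits the precision. limma 3.58.1 in R 4.3.3 was fitted over all 63 arrays in 21 groups, two-sided, with Benjamini-Hochberg adjustment over the 162 miRNAs tested. The fit was also run on simulated arrays with independent noise and no slide effect, which cannot speak to the slide.

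Groups follow the sample labels. Named are the called miRNAs with the largest changes and no overlap between groups (up to 15 in each direction), called members of the miRNA lists, the miR-34 and miR-29 families, miR-122, miR-192, miR-194, miR-21, miR-200b, miR-93 and miR-451. Other miRNAs were named after their values were seen. The members and lists were chosen with earlier results of these data known. The alternatives were the value table, the processed signal with 2 scalings, normexp with an offset of 50, other detection filters, slide or scan day as a block, other control arrays, fewer groups and leaving out each rat. Processed signals below a floor of 5 units were set to it.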

Additional observations from a re-analysis of the deposited data

Results flagged for a closer look

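The effect of ETH on a named miRNA differed from that of another compound, by limma on the difference itself, in 11 cases against AA, 9 against MPy and 12 against DMN. With slide as a fixed block 0 of these 32 differences were called. With the other assignment of control arrays, that of the value table, 8, 7 and 9 were. The calls lost there were those of miR-10a-5p (from 0.26 to 0.081, adjusted p = 0.74), miR-365 and miR-93 against AA, miR-23b and miR-93 against MPy, and miR-193, miR-19a and miR-7a against DMN. That of miR-10a-5p against AA was also lost without ETH rat 2, ETH rat 3 or control rat 7. Explanations were not tested.

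Against AA, which shares its control rats with MPy, the ETH effect on the log2 scale was above that of AA for miR-34a by 1.34, miR-19b by 0.38 and miR-10a-5p by 0.26. The difference of effects was -0.76 for miR-15b, -0.56 for miR-192, -0.39 for miR-194, -0.33 for miR-26b, -0.32 for miR-26a, -0.31 for miR-365, -0.15 for miR-7a and -0.078 for miR-93.

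Against MPy the difference of effects was 0.77 for miR-34a and 0.40 for miR-19b. It was -0.66 for miR-15b, -0.48 for miR-192, -0.38 for miR-365, -0.22 for miR-23b, -0.15 for miR-7a, -0.11 for miR-103 and -0.098 for miR-93.

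Against DMN the difference of effects was 0.56 for miR-10a-5p, 0.53 for miR-143, 0.49 for miR-19b and 0.23 for miR-19a. It was -0.72 for miR-15b, -0.70 for miR-192, -0.53 for miR-193, -0.42 for miR-194, -0.19 for miR-34b, -0.11 for miR-7a, -0.089 for miR-34c and -0.084 for miR-93. miR-34b and miR-34c were near background in both comparisons, so these sizes are compressed. With the background-subtracted signal, which had a floor of 5 units, the differences were -1.96 and -1.36. Those sizes may depend on the floor and are not given as folds.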

How the results depend on the processing

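The 26 called miRNAs kept their direction in all 13 other settings and whichever rat was left out. Direction could not change with other detection filters, scan day as a block or only the groups compared. These settings leave the differences as they are (miR-34a at 1.89 in each), and only p-values could change. Calls of the 26 held in 239 of 338 cases over all the settings and in 103 of 156 over the rats left out. The total of 26 calls moved to 9 with the 75th percentile over all probes, 1 with slide as a fixed block and 13 with slide as a random block, and to 15 to 22 without single rats. The 10 higher calls moved to 5 in the value table, 20 with the 75th percentile over detected miRNAs, 1 with that over all probes, 5 without a detection filter, 1 and 2 with slide as a fixed and a random block, 5 with control arrays as in the value table and 6 with these and slide as a block, and to 3 to 8 without single rats. The 16 lower calls moved to 8 with the 75th percentile over all probes, 0 with slide as a fixed block and 26 with all methylcellulose rats as controls, and to 11 to 14 without single rats.

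Differences from AA (21 called) moved to 11 in the value table, 3 with the 75th percentile over all probes, 7 without a detection filter, 0 and 6 with slide as a fixed and a random block, 10 with control arrays as in the value table, 5 with these and slide as a block, and 10 with only the groups compared. They ranged from 6 to 23 without single rats, with 6 without ETH rat 2, 10 without ETH rat 3 or control rat 7 and 9 without control rat 9. Differences from MPy (25) moved to 38 and 10 with the 75th percentile over detected miRNAs and over all probes, 0 and 7 with slide as a fixed and a random block, 4 with control arrays as in the value table and slide as a block, and 15 with only the groups compared, and ranged from 16 (without control rat 7) to 26. Differences from DMN (22) moved to 11 with the 75th percentile over all probes, 1 and 11 with slide as a fixed and a random block and 6 with control arrays as in the value table and slide as a block, and ranged from 14 (without control rat 7) to 20. The causes were not tested.

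Sign changes occurred only for named miRNAs that were not called. With slide as a fixed block the differences were 0.0083 for miR-34c, 0.050 for miR-29c, 0.15 for miR-21 and 0.028 for miR-93. With the 75th percentile over all probes they were 0.0035 for miR-34c, -0.13 for miR-29a and -0.032 for miR-122, and with that over detected miRNAs 0.047 for miR-34c and 0.093 for miR-21. miR-122 was at -0.13 in the value table and -0.0015 with all methylcellulose rats as controls, where miR-21 was at 0.022. miR-21 was at 0.040 with control arrays as in the value table, with or without slide as a block. Without single rats miR-122 ranged from -0.0010 to 0.0037, miR-21 from -0.053 to 0.020 and miR-451 from -0.31 to 0.048. No paired analysis was possible because the ETH rats (1 to 3) and their controls (7 to 9) share no replicate numbers. Signal over background limits miR-210, miR-186, miR-219-5p, miR-34b and miR-34c.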
